A study of Homo sapiens with 6 samples.

Results

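The aminoacyl tRNA synthetases of human neurons were examined for their transcript levels and for their response to isoproterenol, an agonist that raises cAMP. Members were the genes whose symbol matched the naming of these enzymes, that is, an amino acid letter followed by ARS and a compartment number, together with EPRS1, FARSA and FARSB. This rule found 38 of the 19823 genes listed, and it used no measured value. By name, 21 encode cytosolic enzymes and 17 encode mitochondrial enzymes, whose symbols end in 2. All 38 passed the filter on low counts, which required more than 5 reads in at least 4 samples.

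The cells were glutamatergic iNeurons made from WTc11, an established line of human induced pluripotent stem cells, in which doxycycline drives the neuronal transcription factor NGN2 and which expresses dCas9-KRAB for CRISPR interference. In both groups RBM12, an RNA-binding protein, was depleted with a guide RNA, and the neurons came from the parental line. This line has only its native β2-adrenergic receptor, on which isoproterenol acts, without the added receptor of the authors' main neurons. The authors describe native receptor levels as low, with very modest cAMP and transcriptional responses. There were 3 untreated samples and 3 samples that received isoproterenol, and the labels give no dose or duration. The dCas9-KRAB line was 1 clone, and samples with a control guide were not analysed here, so every value describes RBM12-depleted neurons.

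Between 18116816 and 21488793 reads per sample were recovered from the deposited normalized counts. RBM12 itself had 244, 279 and 267 normalized counts in the untreated samples and 195, 238 and 233 in the isoproterenol samples, with no control level to set it against. These groups did not overlap, with a log2 fold change of -0.25 that did not pass the test (limma adjusted p = 0.607, or 0.131 with the replicate number as a block), and its part in the results was not tested. All 8 glutamatergic neuron markers were listed, among them the vesicular glutamate transporter SLC17A6 at 12393 to 14710, although the neuronal tubulin TUBB3 reached only 69.2 to 94.4. The 3 GABAergic neuron markers summed to 55.3 to 60.0 in untreated and 66.9 to 79.0 in isoproterenol samples, groups that did not overlap, and their part in the results was not tested. The pluripotency markers POU5F1 and LIN28A together stayed under 28.9, and the astrocyte water channel AQP4 ran from 90.3 to 134. NANOG, GFAP, ALDH1L1, MKI67 and TOP2A were looked up and were not among the genes listed. AQP4 was therefore the only astrocyte marker with values, and no marker of proliferating cells had any. In such bulk samples fewer cells of a type and less RNA per cell cannot be told apart.

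Each synthetase joins an amino acid to its tRNA, using ATP, and thereby sets the amino acid that a codon will bring to the ribosome. Most amino acids have a separate enzyme for the cytosol and for the mitochondrion, both encoded in the nucleus. GARS1 and KARS1 supply both compartments from a single gene, EPRS1 joins a glutamyl and a prolyl enzyme in one protein, and FARSA and FARSB are the subunits of the cytosolic phenylalanyl enzyme. Several cytosolic enzymes assemble into the multi-synthetase complex. When amino acids run short, or under other stresses that act through eIF2α, the transcription factor ATF4 raises many cytosolic synthetase genes, commonly through a composite C/EBP-ATF element. cAMP signaling acts through CREB, which binds the cAMP response element, a related sequence. Dominant variants in several cytosolic synthetases, GARS1 first among them, cause Charcot-Marie-Tooth neuropathy, in which long axons fail. Recessive variants in the mitochondrial enzymes cause disorders of brain, heart or hearing.

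Promoter windows from RefSeq, on GRCh38.p14, were searched for these elements on both strands, from 250 bases before to 50 bases after each annotated start. Of the 38 genes, 30 had at least 1 window, 39 windows in all. The other 8, among them AARS2, LARS1, TARS3, VARS1, VARS2 and YARS1, had none. The composite element TGATGCAA occurred in 6 of the 30 genes (20%), all of them cytosolic, whereas 0.866% of all 35116 windows held it. The full cAMP response element TGACGTCA was in none of the members' windows and in 1.85% of all windows. Its shorter form TGACG, which lies within the full element, was in 12 of the 30 genes (40%) and in 24.6% of all windows, and the ETS core CCGGAAG was in 16 (53.3%) and in 10.3%. A gene may have more than 1 window, so shares of genes and of windows are not on the same footing, and a match of letters is not a measured binding site. The 6 stretches with the composite element are shown because they mark the cytosolic genes in which the ATF4-type sequence was found. Each is 30 bases, read 5′ to 3′ on the strand that carries the element, with the element in capitals.
TARS1: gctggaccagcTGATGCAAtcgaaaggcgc
IARS1: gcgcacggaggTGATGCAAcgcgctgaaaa
CARS1: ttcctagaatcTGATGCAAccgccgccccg
MARS1: gaatccctcgcTGATGCAAccggaaccggc
AARS1: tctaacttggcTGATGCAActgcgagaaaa
NARS1: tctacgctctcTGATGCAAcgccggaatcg

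The TARS1 stretch lies at chr5:33440956-33440985 on the minus strand, opposite to the gene, and the IARS1 stretch at chr9:92293692-92293721 on the plus strand, also opposite to its gene. The CARS1 stretch at chr11:3057407-3057436 (plus strand) and the MARS1 stretch at chr12:57488053-57488082 (minus strand) are likewise opposite to their genes. The AARS1 stretch is at chr16:70289675-70289704 (plus strand), opposite to its gene, and the NARS1 stretch at chr18:57621804-57621833 (minus strand) runs with its gene. In 5 of the 6 the element lay close to the RefSeq start. Its first base in the gene's direction was between position -13 (IARS1) and position 15 (NARS1) counted from the start. Where the stretch is opposite to its gene, that base is the last of the element as printed. In AARS1 the element lay at -187, counted in the same way.

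Synthetase transcripts spanned more than 2 orders of magnitude in these neurons, and the cytosolic enzymes were the more abundant. Levels between genes are given as normalized counts per kilobase of the canonical transcript, averaged over the 6 samples. The 21 cytosolic genes had a median of 759, from 217 for TARS3 to 2191 for SARS1, and the 17 mitochondrial genes had a median of 117, from 7.92 for VARS2 to 589 for IARS2. SARS1, which loads serine onto both serine and selenocysteine tRNAs, was followed by GARS1 (1472), MARS1 (1305), YARS1 (1258), NARS1 (1057), KARS1 (1051) and TARS1 (1037). The 2 most abundant mitochondrial transcripts, IARS2 and RARS2 (578), lay above 8 cytosolic ones, of which QARS1, the glutaminyl enzyme, was the highest at 569. The lowest of all were PARS2 (33.7), SARS2 (9.43) and VARS2. Of the exonic bases of SARS2 48.2%, and of those of VARS2 63.0%, are shared with another gene on the same strand. How reads from shared bases were counted is not stated, so the levels of SARS2 and VARS2 are uncertain.

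**Figure D1:**
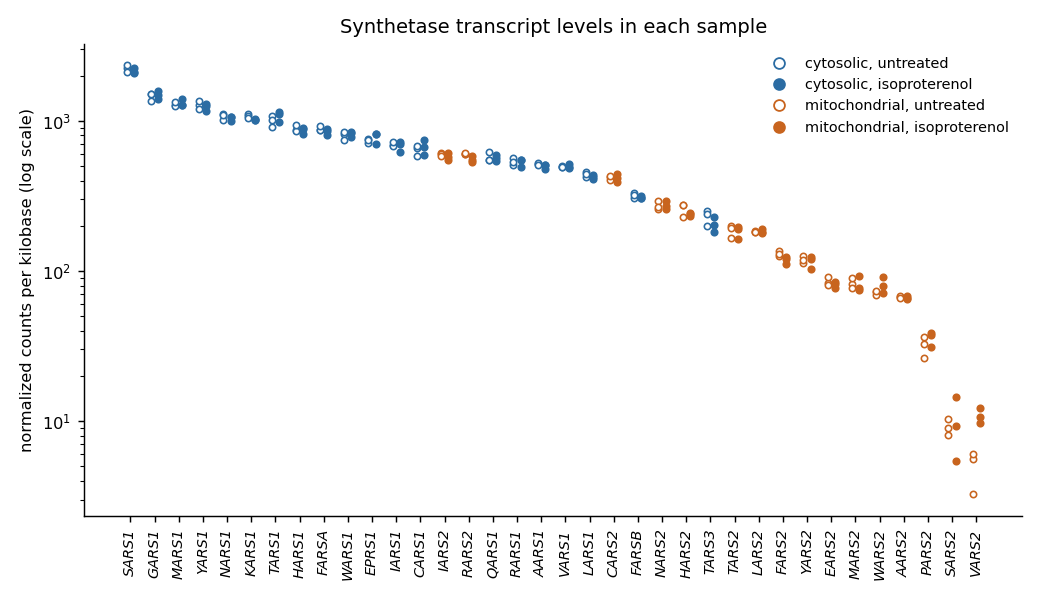
Normalized counts per kilobase of canonical transcript (log axis) for 36 of the synthetase genes, ordered by their mean, with 1 point per sample, open for the 3 untreated and filled for the 3 isoproterenol samples. Cytosolic genes run from 217 to 2191 and mitochondrial genes from 7.92 to 589, and in nearly every gene the filled and open points lie close together, VARS2 at the far right being apart.

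Values of a group are given below in the order of replicates 1, 2 and 3, as normalized counts. SARS1 had 4309, 4024 and 4479 untreated and 3994, 4025 and 4326 with isoproterenol. IARS2, which serves isoleucine in mitochondria, had 2170, 2108 and 2070 untreated and 2146, 1933 and 2042 with isoproterenol. In both genes the groups overlapped, with log2 fold changes of -0.05 for SARS1 and -0.05 for IARS2 (adjusted p = 0.836 and 0.846, limma).

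For 14 amino acids the symbols ending in 1 and 2 gave a cytosolic and a mitochondrial enzyme to set side by side (for threonine TARS1 and TARS2, leaving out TARS3), and the cytosolic transcript was higher per kilobase in 13 of them. The ratio had a median of 4.74. It was 232 for serine, 62.9 for valine, 15.9 for methionine, 10.7 for tyrosine and 10.6 for tryptophan, where a low mitochondrial level stood against an abundant cytosolic one. The serine and valine ratios rest on SARS2 and VARS2, whose levels are uncertain because of the shared exonic bases. The ratio came close to 1 for cysteine (1.57) and isoleucine (1.17), and for arginine the mitochondrial RARS2 was the higher (ratio 0.921). Summed over all members, the cytosolic to mitochondrial ratio per kilobase was 5.40, 5.23 and 5.74 in untreated replicates 1 to 3 and 5.65, 5.31 and 5.70 with isoproterenol. The balance between compartments therefore overlapped between the groups. Within an amino acid, the ratio of the enzymes' normalized counts did not overlap between the groups for 2 of the 14, valine being 1 of them, and both ratios were lower with isoproterenol. For reference, 12.9% of all single genes tested had groups that did not overlap, and the 2 ratios were not tested.

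The question of the contrast was which of these transcripts respond to isoproterenol. Without pairing of the samples no synthetase passed: 0 of 38 had an adjusted p under 0.05 with limma. edgeR's quasi-likelihood test and DESeq2 also called 0, and few genes passed in the whole table (0.0165%, 3 of 18130 with limma). At an unadjusted p under 0.05 limma held 1 member, VARS2, while 7.68% of all genes tested had such a p. The samples' replicate numbers paired them, and with the replicate as a block 2 members rose, VARS2 and TARS1, and 0 fell. These are 5.26% of the members against 4.88% of all genes called in either direction, and 2.82% of all genes called higher, so the members' share lay near that of all genes. edgeR with the block called the same 2, with 5.39% of all genes called. The 3 isoproterenol values lay entirely on one side of the 3 untreated values in 4 members, or 10.5%, against 12.9% of all genes. They were VARS2, which was higher, and KARS1, RARS2 and FARS2, which were lower and passed no test.

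The intervals of the fit without the block were narrow for most enzymes. The 95% interval of the log2 fold change lay within ±0.25 for 26 of the 38 genes, 18 of 21 cytosolic and 8 of 17 mitochondrial. Standard errors ran from 0.05 to 0.09 among cytosolic genes and from 0.05 to 0.36 among mitochondrial genes, the widest belonging to SARS2, which rested on as few as 9 reads in a sample. The cytosolic log2 fold changes ranged from -0.17 to 0.11 and those of the mitochondrial genes from -0.15 to 1.13.

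**Figure D2:**
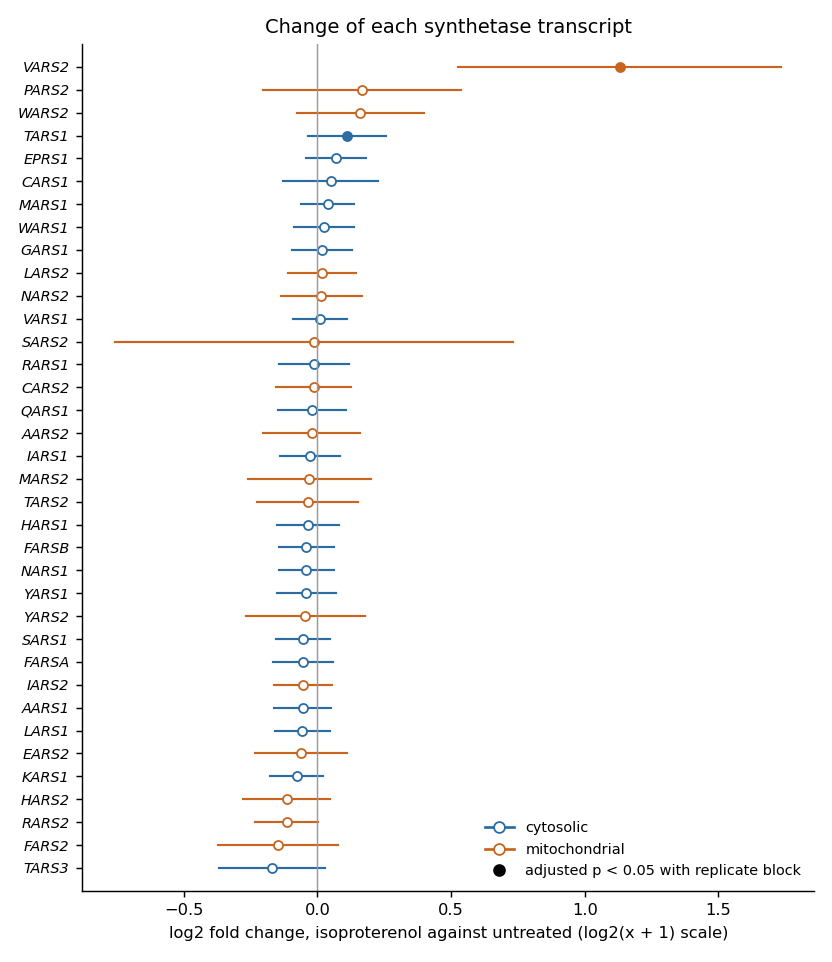
Log2 fold change between isoproterenol and untreated samples (limma, log2(x + 1) scale) for 36 of the synthetase genes, ordered by size, with 95% confidence intervals, coloured by compartment; filled points had an adjusted p under 0.05 in the fit with the replicate as a block. VARS2 stands apart at 1.13, every other gene shown lies between -0.17 and 0.17, and the SARS2 interval is the widest.

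As groups, both compartments had a median change close to 0. The median log2 fold change was -0.04 over the 21 cytosolic genes, of which 7 had a positive and 14 a negative value, and -0.02 over the 17 mitochondrial genes, of which 6 were positive and 11 negative. Over all genes tested it was 0.002. The cytosolic median was -0.03, -0.03 and -0.03 in pairs 1, 2 and 3. The mitochondrial median was -0.05, 0.003 and 0.04 in the same pairs, so its sign differed between pairs. Without isoproterenol replicate 2 the cytosolic median was 0.0002.

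Sorting the enzymes by their chemistry gave the same small values. The 18 class I enzymes, which share a Rossmann-type catalytic fold, had a median log2 fold change of -0.02, and the 19 class II enzymes had -0.04. EPRS1 holds one domain of each class and was left out of both. The 8 enzymes of the multi-synthetase complex (among them EPRS1, IARS1, LARS1, MARS1, QARS1, RARS1 and KARS1) had a median of -0.02, with 2 positive and 6 negative. Among 13 cytosolic genes known as ATF4 targets the median was 0.009 and 7 were positive, and TARS1 was the 1 that rose with the block. For the 6 genes with the composite element the median was 0.005, with 3 positive and 3 negative, and for the 6 genes of dominant Charcot-Marie-Tooth neuropathy (AARS1, GARS1, HARS1, MARS1, WARS1 and YARS1) it was -0.009, again with 3 of each sign.

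VARS2, the mitochondrial valyl enzyme, showed the largest difference. Its normalized counts were 19.8, 11.6 and 21.7 untreated and 37.9, 43.8 and 34.9 with isoproterenol, so that all treated samples lay above all untreated ones. The log2 fold change was 1.13 (SE 0.29, 95% interval 0.53 to 1.73), a 2.19-fold higher mean. It did not pass limma without the block (adjusted p = 0.265) and passed with it (adjusted p = 0.00762; edgeR with the block 0.00879). The difference was positive in 3 of 3 pairs, at 0.90, 1.83 and 0.66. The largest came from pair 2, in which the untreated sample held 12 reads, and without that pair the blocked log2 fold change was 0.78 (adjusted p = 0.251). VARS2 lies on chromosome 6 from 30914205 to 30926459, plus strand, and 4073 of its 6467 exonic bases (63.0%) are shared with a long noncoding RNA gene on the same strand, ENSG00000288473, which had no value here. Reads from the shared bases cannot be told apart between these genes. VARS1, the cytosolic valyl enzyme, shares no exonic base with another gene and had a log2 fold change of 0.01 (95% interval -0.09 to 0.11).

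TARS1, the cytosolic threonyl enzyme, was higher by a small amount within each pair. It had 2860, 2414 and 2725 normalized counts untreated and 2969, 2609 and 3054 with isoproterenol. The groups overlapped, since replicate 2 was the lowest of its group on both sides. The pair differences were 0.05, 0.11 and 0.16, and the log2 fold change was 0.11 (SE 0.07 without and 0.03 with the block), for an adjusted p of 0.743 with limma and of 0.0300 with limma and the block (edgeR with the block 0.0221). Leaving out pair 2 gave an adjusted p of 0.116 and leaving out pair 3 gave 0.396 in the blocked limma fit, while leaving out pair 1 gave 0.0320. Without untreated replicate 2 the unblocked log2 fold change was 0.04, and without isoproterenol replicate 2 it was 0.18. TARS1 is on chromosome 5 from 33440696 to 33468091, plus strand, shares no exonic base with another gene, and carries the composite element shown above.

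The other threonyl enzymes had negative fold changes, although the pairs of TARS2 differed in sign. TARS3, a second threonyl enzyme of the cytosol, had 871, 699 and 831 normalized counts untreated and 796, 629 and 710 with isoproterenol, a log2 fold change of -0.17 (95% interval -0.37 to 0.03). The groups overlapped and the test was not passed (adjusted p = 0.70 with limma, 0.0622 with limma and the block, 0.0503 with edgeR and the block). TARS2, its mitochondrial counterpart, had a log2 fold change of -0.04 (95% interval -0.22 to 0.15). Its pair differences were -0.31, 0.004 and 0.20, without a common sign. The signs of TARS1 and TARS3 differed, a difference between genes that was not tested.

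**Figure D3:**
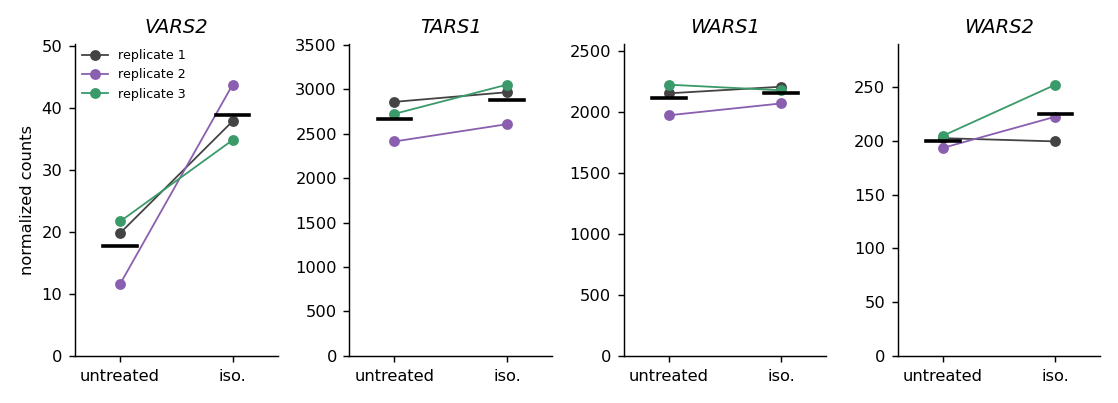
Normalized counts of VARS2, TARS1, WARS1 and WARS2 in each sample (linear axes from 0), untreated at left and isoproterenol (iso.) at right, with lines joining samples of the same replicate number and black bars at the group means. VARS2 is higher in all 3 treated samples, TARS1 rises slightly along each line, WARS1 overlaps between the groups, and WARS2 parts in replicates 2 and 3 only.

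For tryptophan the cytosolic WARS1, which interferon also induces in many cells, had 2154, 1974 and 2225 normalized counts untreated and 2208, 2071 and 2179 with isoproterenol. The groups overlapped throughout. The log2 fold change was 0.02 (SE 0.05, 95% interval -0.09 to 0.14, limma adjusted p = 0.943), and it was -0.02 without untreated replicate 2, so its sign rested on that library. The mitochondrial WARS2 had 203, 194 and 205 untreated and 200, 223 and 252 with isoproterenol. Replicate 1 of the treated group lay among the untreated samples and the other two lay above them. The log2 fold change was 0.16 (SE 0.11, 95% interval -0.08 to 0.40, limma adjusted p = 0.781, or 0.487 with the block), and it was 0.07 without isoproterenol replicate 3.

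The balance of the tryptophan pair was examined as the log2 ratio of WARS1 to WARS2 normalized counts. It was 3.40, 3.34 and 3.44 untreated and 3.46, 3.21 and 3.11 with isoproterenol. The means were 3.39 ± 0.05 and 3.26 ± 0.18 (SD, n = 3), a difference of -0.13 that lay within the spread of the treated samples (two-sided exact permutation test, p = 0.4, where 3 against 3 samples cannot go below 0.1). The pair differences were 0.06, -0.13 and -0.33, without a common sign.

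The tRNA that WARS2 charges is encoded by the mitochondrial genome as MT-TW, and its listed counts fell. They were 195, 298 and 241 untreated and 59.9, 81.9 and 71.8 with isoproterenol, a log2 fold change of -1.76 (SE 0.16, limma adjusted p = 2.80e-05), and the groups were far apart. MT-TT, the tRNA that TARS2 charges, had 65.8, 71.6 and 61.0 untreated and 36.9, 33.4 and 18.5 with isoproterenol, a log2 fold change of -1.19 (limma adjusted p = 0.144, or 1.10e-04 with the block). Both are short genes measured from poly(A)-selected RNA, on 60 to 308 reads for MT-TW and 18 to 74 for MT-TT, and the level of charged tRNA was not measured. The other mitochondrial tRNAs were not analysed here, so whether the lower counts are particular to MT-TW and MT-TT was not tested.

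Among the remaining members were PARS2 and FARS2. PARS2, the mitochondrial prolyl enzyme, had 77.3, 85.2 and 62.1 normalized counts untreated and 90.8, 87.6 and 72.8 with isoproterenol, a log2 fold change of 0.17 with an interval from -0.21 to 0.54. The groups overlapped, and each pair differed in the same direction. FARS2, the mitochondrial phenylalanyl enzyme, had 227, 212 and 219 untreated and 186, 208 and 201.0 with isoproterenol, a log2 fold change of -0.15 (adjusted p = 0.785, limma). Its treated values all lay below the untreated ones, as did those of KARS1 (log2 fold change -0.08) and RARS2 (-0.12). SARS2, the mitochondrial seryl enzyme, stood at 19.8, 17.4 and 15.5 untreated and 18.0, 10.4 and 27.7 with isoproterenol. Its interval ran from -0.76 to 0.73, so changes within that range were not resolved for this gene, and 1492 of its 3098 exonic bases (48.2%) are shared with a protein-coding gene on the same strand, ENSG00000269547.

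A pattern that was noticed after the values were seen ran across the replicates. In 11 of the 21 cytosolic genes (52.4%) replicate 2 was the lowest sample of its group in both groups, against 17% of all genes tested and 2 of the 17 mitochondrial genes (11.8%). Among the 13 ATF4 targets it held for 8 (61.5%), among the 6 genes with the composite element for 4, and among the 6 neuropathy genes for 4. These lists share genes and all lie within the 21 cytosolic genes, so their counts are not separate observations. Replicate 2 differed from the mean of replicates 1 and 3 of its group by a median log2 of -0.07 (untreated) and -0.09 (isoproterenol) over the cytosolic genes and of -0.01 and 0.05 over the mitochondrial genes, while the median over all genes was 0.0004 and 0.004.

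Outside the family the lists differed. Among the 19 genes that work beside the synthetases in tRNA charging, 3 (15.8%) were lowest in replicate 2 of both groups. Among 20 amino acid response genes, including ATF4, 8 (40%) were lowest in replicate 2 of both groups. ATF4 had 6011, 5249 and 6155 normalized counts untreated and 6509, 5613 and 6597 with isoproterenol, the replicate 2 sample being the lowest each time. Read depth differed in opposite directions between these libraries, since untreated replicate 2 was the deepest and isoproterenol replicate 2 the shallowest of the 6. With TMM scaling 11 of the 21 cytosolic genes were lowest in replicate 2 of both groups, and with total-count scaling 9 were. What set replicate 2 apart was not tested, and the labels name no batch.

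**Figure D4:**
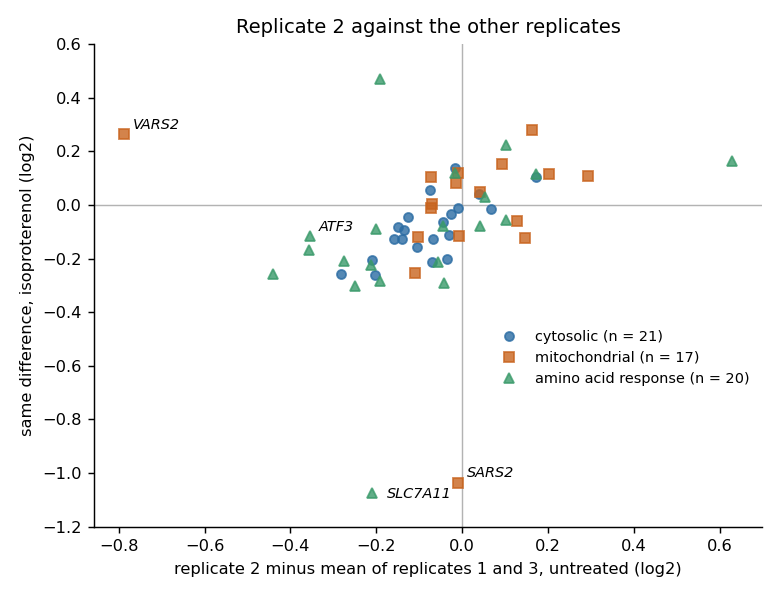
Difference on the log2 scale between replicate 2 and the mean of replicates 1 and 3, in untreated (horizontal) against isoproterenol samples (vertical), with 1 point per gene for 21 cytosolic synthetases, 17 mitochondrial synthetases and 20 amino acid response genes. Most cytosolic points sit at lower left, where replicate 2 is low in both groups, and mitochondrial points scatter around 0, with VARS2 and SARS2, both of few reads, far out.

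Proteins that work beside the synthetases were examined as a list of 19 partner genes. Of these, 0 passed limma and 2 changed with the block (10.5% of the list, against 4.88% of all genes in either direction). SEPSECS, which completes selenocysteine on its tRNA, was higher, and the elongation factor EEF1A1, which delivers charged tRNA to the ribosome, was lower. SEPSECS had 120, 143 and 148 normalized counts untreated and 178, 187 and 174 with isoproterenol (log2 fold change 0.39, adjusted p = 0.446 with limma and 0.0367 with limma and the block). The groups did not overlap. EEF1A1 had a log2 fold change of -0.15 (adjusted p = 0.790 with limma and 8.17e-15 with limma and the block). Its differences in the 3 pairs were -0.15, -0.10 and -0.20, a wider range than its blocked interval of -0.18 to -0.12. The p-value of EEF1A1 with the block rests on variance pooled across genes more than on the spread of these differences. Its small size therefore does not measure how certain 3 pairs make the fall. The scaffold proteins of the multi-synthetase complex had log2 fold changes of -0.13 (AIMP1), 0.04 (AIMP2) and 0.04 (EEF1E1), none of which passed with or without the block. Over the 19 genes the median was 0.008.

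Of the 20 amino acid response genes, which ATF4 is known to raise in amino acid shortage, 0 passed limma. With the block 3 rose and 0 fell (15% of the list, against 4.88% of all genes in either direction). They were ATF3, SHMT2 and ATF4. ATF3, a stress-induced transcription factor that cAMP also induces, had 86.7, 77.4 and 114 normalized counts untreated and 120, 152 and 228 with isoproterenol (log2 fold change 0.81, adjusted p = 0.320 with limma and 8.76e-06 with the block). SHMT2, the mitochondrial serine hydroxymethyltransferase, had a log2 fold change of 0.22 (adjusted p = 0.00299 with limma and the block), and ATF4 had 0.10 (0.00400). DDIT3, which encodes the stress factor CHOP, was lower in the edgeR fit with the block (log2 fold change -0.36, adjusted p = 0.0405) and missed the threshold in limma with the block (0.0505). DDIT3 shares 355 exonic bases with MARS1 on the opposite strand, and whether reads were counted by strand is not stated. ASNS, the asparagine synthetase often used as a readout of this pathway, had 61.6, 49.3 and 51.7 untreated and 48.9, 80.7 and 68.7 with isoproterenol, overlapping groups with a log2 fold change of 0.26 (adjusted p = 0.812, limma). The list median was 0.10, with 13 of 20 genes positive, beside 0.009 for the 13 synthetases that ATF4 targets.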

How the data were processed

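Poly(A) RNA from 6 samples of iNeurons was sequenced with a directional kit, and the authors aligned reads to GRCh38 with STAR, counted them per gene with featureCounts and filtered low genes. Tool versions, the annotation release and the strand setting of counting are not given in the sources used here. The values the authors deposited are a signal, gene counts divided by a DESeq2 size factor for each sample. In each column 100% of values were whole multiples of 1 step (tolerance 1e-04), which gave back whole reads. Groups and replicate numbers came from the sample titles.

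The test was limma 3.58.1 (trend, robust) in R 4.3.3, run on log2(normalized count + 1) for the 18130 genes that had over 5 recovered reads in 4 or more samples (1693 were removed). P-values were adjusted by the Benjamini-Hochberg method across these genes, and every test is two-sided. The added 1 understates changes of low genes. Intervals are 95% limits of the limma fit without the block, unless called blocked. edgeR 4.0.16 and DESeq2 1.42.0 were run on the recovered reads, and the fits were tested on simulated data. The simulated reads had the same spread setting for every gene and no difference between replicates, and changes were planted only in well-expressed genes. Those data therefore cannot check the use of the block on these samples or calls in genes of few reads. Other settings tried were scaling by TMM or by total counts, leaving out the filter, a mean of at least 50, pseudocounts of 0.5 and 5, the replicate block, and each sample left out. Leaving out 1 pair in the blocked fit was added after seeing the data. Samples sharing a number deviated together from their group means (correlations of 0.269, 0.493 and 0.388 for numbers 1, 2 and 3 over 11587 genes, each above 0.1). They are therefore described as pairs, and the fits with the block use this pairing. The main limma test left it out. The labels do not say that replicates came from separate cultures, so p-values speak only to spread between these samples. The fits estimate that spread by pooling variance across genes. The p-values with the block, those of VARS2 and TARS1 among them, therefore rest on that pooled variance. In limma with the block they rest on it more than on the spread of a gene's own pair differences.

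The members and gene lists were chosen with earlier results of these data known. Values in every sample are given for WARS1 and WARS2, for members past an adjusted p of 0.05 with or without the block, for the 3 largest rises and the 3 largest falls with a mean of at least 10, and for the highest and lowest level per kilobase in each compartment. The values of 2 members are not reported here, although all counts and medians include them. SARS2 and genes outside the family were named beside these after their values were seen. Positions, canonical transcript lengths and exon overlaps came from GENCODE release 44, in which 19742 of 19823 identifiers were found. Lists other than the members were written from general knowledge.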

Additional observations from a re-analysis of the deposited data

How the results depend on the processing

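The count of synthetases called was 0 in the unblocked fits under every scaling, filter, pseudocount, tool and left-out sample, and 2 with the replicate block in limma and in edgeR. With the block and 1 pair left out (added after seeing the data) it was 1 to 2: 2 without pair 1 (TARS1 and VARS2), 1 without pair 3 (VARS2) and 1 without pair 2, when EPRS1 was called in their place (log2 fold change 0.12, adjusted p = 0.0466). Left-out samples without the block gave 0 throughout, so the range over left-out samples or pairs is 0 to 2. The block likewise raised the partner genes from 0 to 2 (limma) and 2 (edgeR) and the amino acid response genes from 0 to 3 (limma) and 4 (edgeR), and changed no other call among these genes. Over all genes tested, limma and edgeR called 3 each and DESeq2 23, against 885 (limma) and 977 (edgeR) with the block and 456 to 665 with the block and 1 pair left out. VARS2 ranged from 0.78 to 1.37 over its alternatives (adjusted p from 0.00762 to 0.836), and a mean of at least 50 removed it. TARS1 ranged from 0.04 to 0.18 (adjusted p from 0.0221 to 0.9995). The cytosolic median was -0.0322 with total-count scaling and -0.0435 to 0.000231 with a sample left out, and the mitochondrial median -0.0548 to -0.0078. WARS1 ranged from -0.0249 (without untreated replicate 2, a reversed sign) to 0.0615, WARS2 from 0.0735 to 0.242 and their log2 ratio difference from -0.236 to -0.0575. Genes whose groups did not overlap numbered 6 to 8 with a sample left out, where fewer values have to separate, against 4 with all samples. Low reads limit VARS2, SARS2 and PARS2, and 3 samples a group limit the rest.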
